A study of Mus musculus with 6 samples.

Results

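Haptoglobin (Hp), haemopexin (Hpx), the orosomucoids Orm1 and Orm2, the fibrinogen chains Fga, Fgb and Fgg, the inter-alpha-trypsin inhibitor heavy chains Itih3 and Itih4, and the fibrinogen-like protein Fgl1 are plasma proteins made by hepatocytes, and their transcripts are followed here in livers of Dhx32-/- mice and of control mice. The 10 genes were taken from a fixed list of symbols and matched by single gene symbol in the platform's probe annotation, out of 16117 symbols in all. All 10 matched, with 107 probe sets, and each of these probe sets had a mean log2 signal of 3 or more in at least 1 group, which was the minimum for use. The closest to that minimum was a probe set of Fgl1 with a control mean of 3.28.

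The study hybridised liver RNA of 6 male mice aged 6 to 8 weeks to exon arrays, 1 array per mouse, to ask which transcripts and exons differ when Dhx32, a DEAH-box RNA helicase gene, is mutated. Of these, 3 mice are labelled as a homozygous Dhx32-/- mutant strain and 3 as wild type controls. No treatment is named for either group, and the kind of mutation, the genetic background and whether the mice were littermates are not given in the sources used here. Each value is 1 liver.

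These proteins belong to the acute phase response, in which cytokines from activated macrophages, above all IL-6 and IL-1, act on hepatocytes through STAT3, NF-kB and C/EBP factors and raise the output of defence and repair proteins into plasma. Haptoglobin and haemopexin scavenge free haemoglobin and haem, orosomucoids bind small molecules and dampen inflammation, the 3 fibrinogen chains assemble into the clotting protein, and the inter-alpha-trypsin inhibitor heavy chains bind hyaluronan or serve as protease substrates in plasma. In mice the basal liver output of most of them is already high, so that they are counted among the moderate acute phase reactants, beside the serum amyloids, which start low.

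Dhx32 itself read 6.35, 6.60 and 7.04 in the 3 mutant livers, against 8.28, 8.85 and 8.62 in the controls, as gene means on the log2 scale, so the labels and the signal of the mutated gene go the same way. Array medians ran from 6.73 to 6.95. Mutant replicate 1 stood apart from every other array over all probe sets, with correlations of 0.935 to 0.940 against 0.960 to 0.973 among the other 5 arrays, and results are therefore given with and without it. The hepatocyte markers Alb, Ttr, Apoa1, Tat, Cyp2e1 and Hnf4a were bright in both groups, with control means from 11.3 to 14.0. A gene's value is the mean of its probe sets, differences are mutant minus control, and adjusted p-values come from limma over all 15045 genes with at least 2 usable probe sets.

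All 10 genes had a higher mean in Dhx32-/- livers, and in each of the 10 the highest of the 6 arrays was mutant replicate 1, which was the highest array in 20.6% of all genes. Fgl1 (2.82-fold), Orm2 (2.71-fold) and Hp (1.89-fold) differed most between group means, whereas the fibrinogen chains Fga, Fgb and Fgg differed by 1.18-fold, 1.05-fold and 1.08-fold. In Hp, Orm2, Itih3, Itih4 and Fgl1 every mutant liver read above every control liver. None of the 10 passed the 0.05 threshold in limma (adjusted p = 0.943 for 8 of them and 0.957 for Fgb and Fgg), beside 0.00665% of all genes tested. In whole liver, more cells of a type and more RNA per cell cannot be told apart.

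At an unadjusted p under 0.05 in limma, 4 of the 10 genes were higher in mutants and none lower, beside 2.01% and 2.2% of all genes. Groups without overlap and with the mutants higher were seen in 5 of the 10, beside 5.15% of all genes, and a higher mutant mean in 10 of 10, beside 47.5%. The median difference over the 10 genes was 0.45, against -0.01 over all genes. Without mutant replicate 1 the median was 0.23, 8 of the 10 had a higher mutant mean (54.2% of all genes), and 3, which were Hp, Orm2 and Fgl1, reached an unadjusted p under 0.05 (2.55% of all genes). The same 5 genes then had no overlap, beside 10.2% of all genes. This follows from leaving out the highest array of each gene and adds nothing to the count above. None of the 10 passed after adjustment. The genes were chosen with earlier results of these arrays known, so these counts describe the 10 genes and are not a test of them.

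**Figure D1:**
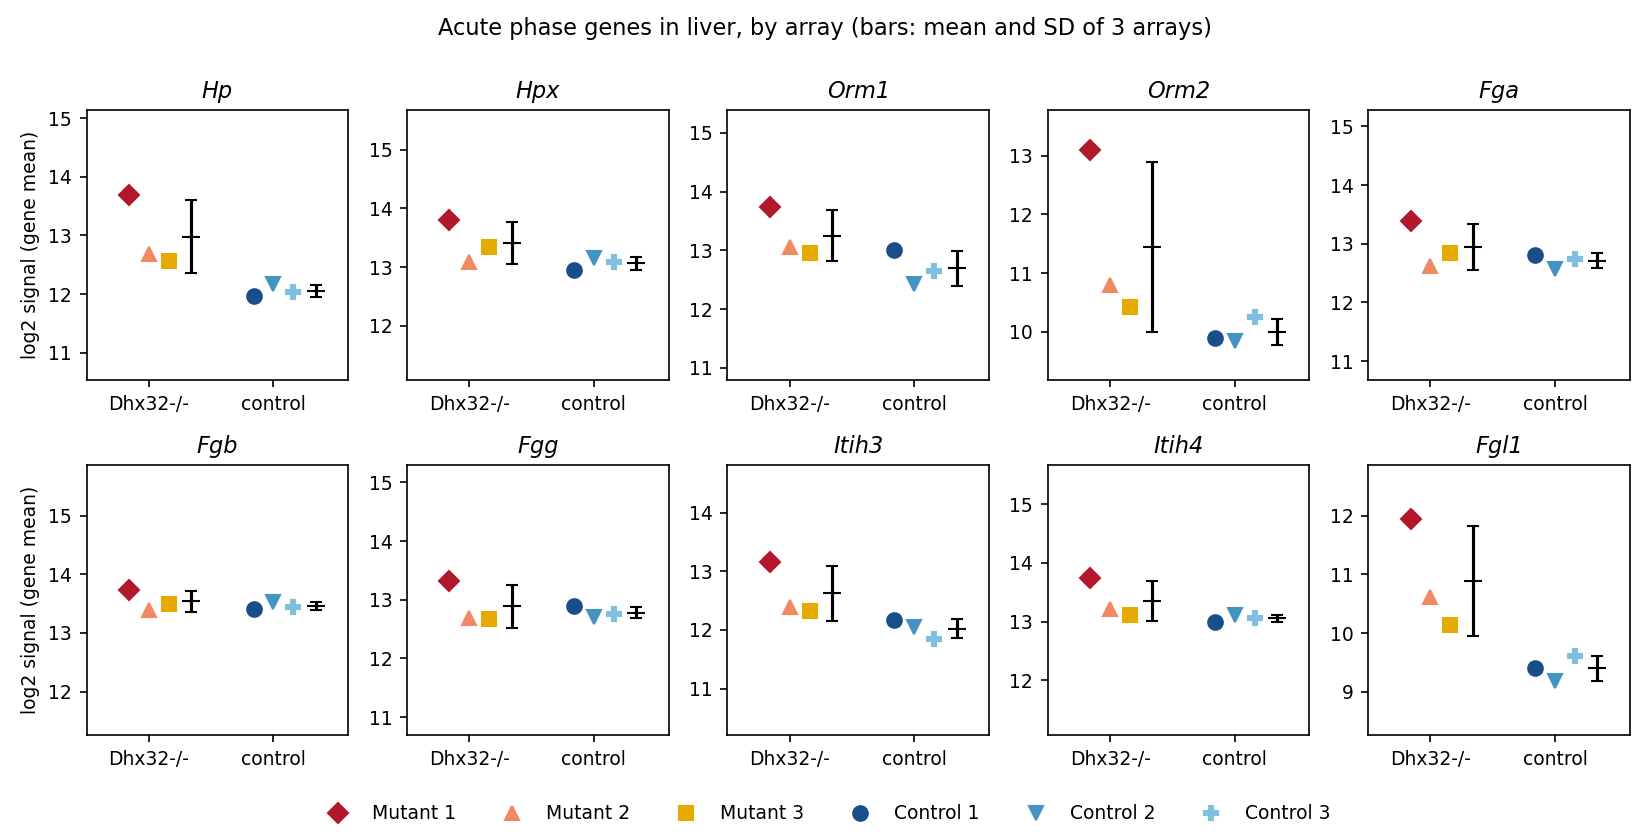
Gene means of log2 signal (y axis) on each array for the 10 acute phase genes, Dhx32-/- livers left of control livers, with 1 symbol per mouse and the mean and SD of each group of 3 beside it; every panel spans the same number of log2 units. Mutant replicate 1 is the highest point in all 10 panels, and Hp, Orm2, Itih3, Itih4 and Fgl1 have all 3 mutants above all 3 controls.

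Haptoglobin binds haemoglobin released from red cells, and the complex is cleared by macrophages. Hp read 13.69, 12.68 and 12.57 in the mutant livers, against 11.97, 12.17 and 12.03 in the control livers. The lowest mutant lay above the highest control, and mutant replicates 2 and 3 lay close to each other, between the controls and mutant replicate 1. The difference was 0.92 (SE 0.29; adjusted p = 0.943 in limma), with means of 12.98 ± 0.62 in mutants and 12.06 ± 0.10 in controls (SD, n = 3 each). Mutant replicate 1 alone was 3.10-fold above the control mean. Without it the difference was 0.56 (SE 0.15; adjusted p = 0.973 in limma). Among the 151 genes with a control mean of 12 or more, Hp had the highest mutant difference, with and without that array. Beside 46.8% of all probe sets, all 6 of Hp had a higher mutant mean, by 0.34 to 1.71. The lowest of these, probe set 5413680, was already at 13.61 ± 0.07 in controls (13.95 ± 0.15 in mutants), and the highest, 4878719, was at 8.31 ± 0.24 in controls (10.02 ± 1.31 in mutants; SD, n = 3 each).

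Haemopexin, which carries free haem to the liver, showed the smaller difference of the 2 scavengers. Hpx read 13.80, 13.08 and 13.34 in the mutants, against 12.95, 13.16 and 13.09 in the controls. Mutant replicate 2 lay within the control range, so the groups overlapped, and the difference of 0.34 (SE 0.20; adjusted p = 0.943 in limma) was 0.15 without mutant replicate 1. The Hp signal minus the Hpx signal of the same array was -0.10, -0.41 and -0.78 in the mutants, against -0.97, -0.99 and -1.06 in the controls. This within-array difference was thus less negative in each mutant, with controls spread over less than 0.1. All 12 probe sets of Hpx had a higher mutant mean, beside 46.8% of all probe sets, with differences of 0.07 (5125372) to 0.79 (5545489).

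The orosomucoids, or alpha-1-acid glycoproteins, are encoded side by side on chromosome 4. Orm1 read 13.75, 13.06 and 12.95 in the mutants, against 13.01, 12.42 and 12.64 in the controls. Control replicate 1 lay between mutant replicates 2 and 3, so the groups overlapped (difference 0.56, SE 0.25; adjusted p = 0.943 in limma; 0.31 without mutant replicate 1). Its 6 probe sets differed by 0.28 (5000581) to 0.87 (4887959).

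Orm2 read 13.10, 10.80 and 10.42 in the mutants, against 9.89, 9.85 and 10.26 in the controls. The difference of 1.44 (SE 0.61; adjusted p = 0.943 in limma) was carried by mutant replicate 1, which lay 8.55-fold above the control mean, and it was 0.61 (SE 0.20) without that array. Mutant replicate 3 lay 0.16 above the highest control.

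The 7 probe sets annotated to Orm2 did not behave alike. In 4 of them the control mean was 7.84 to 8.80 and the mutant difference 1.93 to 2.74, whereas the 3 with control means of 11.7 to 13.1 differed by -0.30, 0.32 and 0.57. One of the bright ones, 5205374, had nearly the same signal as the Orm1 probe set 5000581 on every array, with at most 0.06 between them, and another, 5197103, stayed within 0.43 of the Orm1 probe set 4540308. The third of the bright ones, 5521346, lay up to 2.82 from its nearest Orm1 probe set and read 12.98, 9.66 and 11.63 in mutants, against 11.45, 11.74 and 11.99 in controls. Orosomucoid genes of the mouse are closely alike in sequence, and whether these probe sets read Orm2, Orm1 or both was not tested. Averaged over the 4 dimmer probe sets, a split made after their values were seen, Orm2 read 12.88, 9.94 and 8.90 in mutants, against 7.93, 8.10 and 8.58 in controls. That is a difference of 2.37, or 5.17-fold (adjusted p = 0.943 in limma), and 1.22 without mutant replicate 1. The other 3 probe sets averaged 13.39, 11.95 and 12.44 in mutants, against 12.51, 12.19 and 12.50 in controls, and their groups overlapped. The Orm1 minus Orm2 difference of gene values within an array was 0.65, 2.26 and 2.53 in the mutants, against 3.12, 2.57 and 2.38 in the controls, so mutant replicate 1 was the array where it was smallest.

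The fibrinogen chains, which are encoded together on chromosome 3 and secreted as a hexamer with a pair of each chain, differed least. Fga read 13.38, 12.62 and 12.84 in the mutants, against 12.81, 12.56 and 12.75 in the controls (difference 0.24, 95% interval -0.25 to 0.73). Fgb read 13.73, 13.38 and 13.50 in the mutants, against 13.40, 13.53 and 13.45 in the controls (0.08, interval -0.28 to 0.43). Fgg read 13.31, 12.68 and 12.67 in the mutants, against 12.89, 12.70 and 12.75 in the controls (0.11, interval -0.36 to 0.58). In all 3 chains mutant replicate 1 was highest, by 0.67, 0.27 and 0.54 above the control mean, and the other mutants lay in or next to the control range. Without mutant replicate 1 the differences were 0.02 for Fga, -0.02 for Fgb and -0.10 for Fgg, so the sign of Fgb and Fgg turned. None of the 3 passed (adjusted p = 0.943 for Fga and 0.957 for Fgb and Fgg in limma), and the width of the intervals leaves room for differences in either direction.

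The differences between chains within an array were also set side by side for the groups. From controls to mutants the mean of Fga minus Fgb differed by 0.16, that of Fga minus Fgg by 0.13 and that of Fgb minus Fgg by -0.03. Over the 6 arrays Fga minus Fgb spanned 0.62 log2 units, Fgb minus Fgg 0.42 and Fga minus Fgg 0.31. No probe set of the 3 chains separated the groups (0 of 6, 0 of 13 and 0 of 9), beside 4.01% of all probe sets with no overlap and mutants higher. The largest probe set difference was 0.69 in Fga (4359987), 0.37 in Fgb (5269293) and 0.44 in Fgg (4406552). In Fgg, probe set 4406552 read 12.47, 10.20 and 10.82 in mutants, against 10.49, 10.5 and 11.18 in controls, so only mutant replicate 1 was outside the control range on the upper side. The lowest differences were -0.13 in Fga (4807363), 0.00 in Fgb (4847749) and -0.14 in Fgg (4362931).

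Itih3 and Itih4, neighbours on chromosome 14, encode heavy chains of the inter-alpha-trypsin inhibitor family. Itih3, whose product is linked to hyaluronan, read 13.16, 12.40 and 12.32 in the mutants, against 12.16, 12.05 and 11.85 in the controls. All mutants lay above all controls, though mutant replicate 3 only by 0.15 (difference 0.60, SE 0.24; adjusted p = 0.943 in limma; 0.33 without mutant replicate 1). All 18 probe sets of Itih3 had a higher mutant mean, by 0.22 (4805165) to 0.95 (5154786), beside 46.8% of all probe sets. Of the 18, 11 had no overlap, beside the 4.01% above.

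Itih4, a heavy chain family member that plasma kallikrein cleaves, read 13.74, 13.21 and 13.12 in the mutants, against 12.99, 13.11 and 13.06 in the controls. Mutant replicate 3 and control replicate 2 differed by less than 0.01, so the absence of overlap rests on a gap smaller than the spread of either group (difference 0.30, SE 0.19; adjusted p = 0.943 in limma; 0.11 without mutant replicate 1). Of its 22 probe sets 21 had a higher mutant mean, beside 46.8% of all probe sets, with a range of -0.01 (4414509) to 0.55 (5396531). Other genes of the family were measured too. Itih1, next to Itih3, differed by 0.10 (SE 0.14), Itih2 by -0.09 (SE 0.15), and Ambp, which encodes the light chain bikunin, by 0.11 (SE 0.17), which was -0.02 without mutant replicate 1. Itih5 was lower in all 3 mutants (6.55, 6.39 and 6.56, against 6.81, 6.83 and 6.80 in controls) and did not pass (difference -0.31, SE 0.14; adjusted p = 0.943 in limma; -0.34 without mutant replicate 1).

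Fgl1, a hepatocyte-secreted protein with a fibrinogen domain that is a ligand of the T cell receptor LAG-3 and is not part of the clot, had the highest difference of the 10 genes with all arrays and the mean over probe sets. Orm2 lay above it with the median over probe sets (2.10 for Orm2 and 1.58 for Fgl1), without mutant replicate 2 (1.76 and 1.64) and without mutant replicate 3 (1.95 and 1.88). Fgl1 read 11.94, 10.61 and 10.14 in the mutants, against 9.41, 9.18 and 9.61 in the controls. The lowest mutant lay 0.53 above the highest control, which is more than the whole range of the controls. The difference was 1.5 (SE 0.41; adjusted p = 0.943 in limma), the 9th highest among 15045 genes, and it was 0.97 (SE 0.21; adjusted p = 0.756) without mutant replicate 1. All 8 probe sets had a higher mutant mean, by 0.95 (5607061) to 1.74 (4502627), beside 46.8% of all probe sets. Of the 8, 6 had no overlap with mutants higher, beside 4.01% of all probe sets. Of these, 5607061 read 13.68, 12.97 and 12.46 in mutants, against 12.13, 12.07 and 12.05 in controls. Among other genes with a fibrinogen domain, Fgl2 differed by -0.61 (SE 0.19), Angptl6 by -0.27 (SE 0.19), Tnxb by -0.23 (SE 0.19) and Angptl4 by 0.47 (SE 0.56). Of 5 such genes measured, 1, Angptl4, had a higher mean in mutants and none passed. Angptl6 differed by -0.09 without mutant replicate 1.

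**Figure D2:**
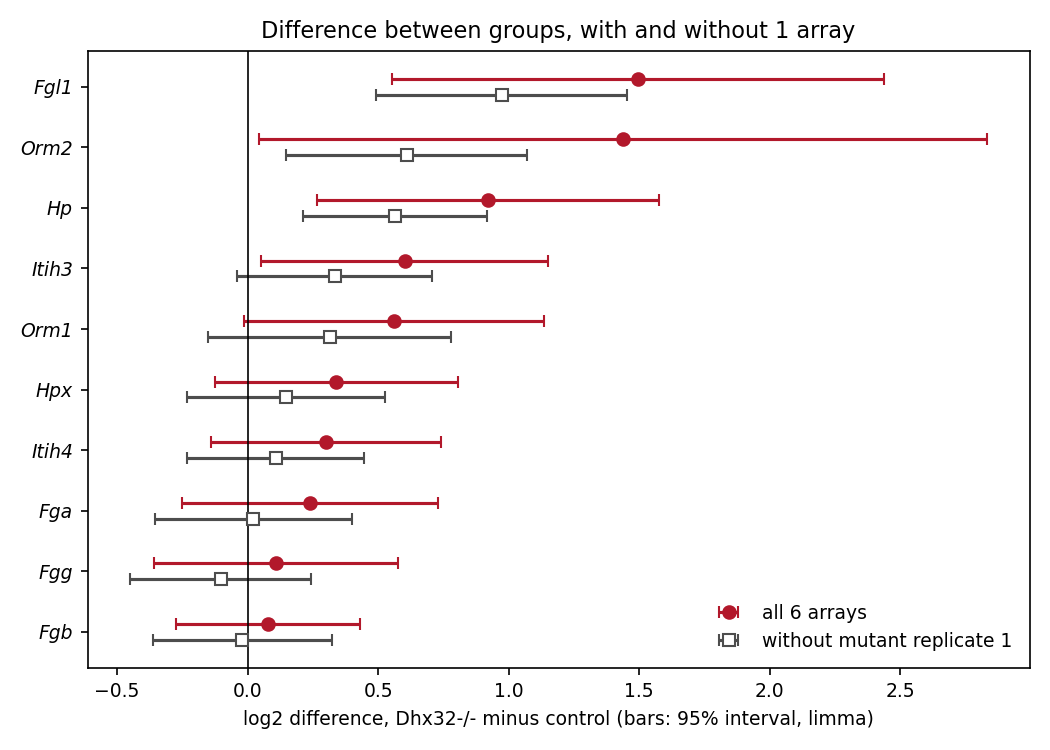
Difference between group means of log2 signal (x axis, Dhx32-/- minus control) for each gene, with 95% intervals from limma, for all 6 arrays (filled circles) and without mutant replicate 1 (open squares). The intervals of Fgl1, Orm2, Hp and Itih3 lie above 0 with all arrays, and the difference is smaller without mutant replicate 1 in each of the 10 genes.

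RefSeq promoter windows (GRCm38.p6, 250 bases before to 50 after the annotated start) were found for 7 of the 10 genes. None was available for Hp, Orm1 and Fgl1, so these were not searched, though Fgl1 had the highest difference of the 10. Shown are 4 windows, from the genes with the larger (Orm2, Itih3) and the smaller (Fgb, Fgg) differences among the 7. Capitals mark matches on either strand to CTGGGAA (an IL-6 response element described in fibrinogen and other liver genes of the rat), to TTCNNNGAA (the core bound by STAT factors) and to TATAAA (the letters of a TATA box). The Orm2 window lies at chr4:63362199-63362498, plus strand, that of Itih3 at chr14:30923538-30923837, minus strand, that of Fgb at chr3:83049814-83050113, minus strand and that of Fgg at chr3:83007474-83007773, plus strand.
Orm2: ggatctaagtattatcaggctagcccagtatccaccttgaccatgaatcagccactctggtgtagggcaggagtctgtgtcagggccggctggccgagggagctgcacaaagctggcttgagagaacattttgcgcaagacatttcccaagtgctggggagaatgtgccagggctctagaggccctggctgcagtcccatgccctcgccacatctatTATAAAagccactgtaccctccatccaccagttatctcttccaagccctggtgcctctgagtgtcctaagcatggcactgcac
Itih3: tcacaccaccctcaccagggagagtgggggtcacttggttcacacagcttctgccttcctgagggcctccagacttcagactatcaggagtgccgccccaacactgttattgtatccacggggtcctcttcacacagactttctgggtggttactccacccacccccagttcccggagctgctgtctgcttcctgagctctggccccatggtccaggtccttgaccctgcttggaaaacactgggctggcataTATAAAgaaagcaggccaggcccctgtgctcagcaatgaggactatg
Fgb: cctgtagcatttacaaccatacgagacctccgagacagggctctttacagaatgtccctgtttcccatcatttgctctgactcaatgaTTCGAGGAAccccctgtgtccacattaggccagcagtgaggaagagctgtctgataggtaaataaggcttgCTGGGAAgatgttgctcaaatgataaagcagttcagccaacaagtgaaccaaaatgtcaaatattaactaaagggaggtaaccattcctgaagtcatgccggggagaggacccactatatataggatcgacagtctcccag
Fgg: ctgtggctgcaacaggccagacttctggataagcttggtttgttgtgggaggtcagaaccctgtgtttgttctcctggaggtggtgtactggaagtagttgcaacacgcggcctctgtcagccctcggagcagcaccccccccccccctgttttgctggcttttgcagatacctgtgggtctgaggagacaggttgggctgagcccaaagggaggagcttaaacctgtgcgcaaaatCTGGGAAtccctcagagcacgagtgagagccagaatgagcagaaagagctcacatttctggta

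CTGGGAA was found in Fgb (bases 160 to 166 of the window) and Fgg (bases 238 to 244), 2 of the 7 windows, beside 11.1% of 32851 windows of this length. TTCNNNGAA was found in Fga, Fgb and Itih4, 3 of 7, beside 8.30% of all windows, and in Fgb it spans bases 89 to 97. TATAAA was found in Orm2 (bases 218 to 223), Itih3 (bases 254 to 259) and Itih4 (bases 248 to 253, as TTTATA), beside 13.6% of all. With 250 bases of the window before the annotated start, the Orm2 match lies before the start. The Itih3 match lies after it and the Itih4 match spans it, so these are matches of letters and not placed TATA boxes. The windows of Orm2 and Itih3 held neither of the first 2 motifs, and that of Hpx held none of the 3. A match describes these letters only.

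The size of a probe set's difference went with its brightness. Over the 107 probe sets of the 10 genes the control signal and the mutant difference had a correlation of -0.81, a description only, since probe sets share genes and arrays and the control signal enters both measures. In the 47 probe sets with a control mean of 13 or more, 43.9% of the 107 beside 0.668% of all usable probe sets, the median difference was 0.21. It was 0.52 in the 32 between 12 and 13, 0.69 in the 19 between 10 and 12, and 1.74 in the 9 under 10. For mutant replicate 1 alone the medians in the same order were 0.44, 1.05, 1.61 and 3.22 above the control mean. The highest signal of any probe set on an array was 14.78 to 14.97, and no ceiling of the signal was measured. Whether nearness to the top of the scale bears on the small differences of the fibrinogen chains was not tested. Within single genes the correlation of control signal and mutant difference was negative in 10 of 10, from -0.25 in Hpx to -0.95 in Orm1. For mutant replicate 1 alone it ran from -0.98 in Orm2 to -0.003, near no relation, in Fgl1.

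Genes of like brightness give another scale for these differences. Among the 151 genes with a control mean of 12 or more, the 5th to 95th percentile of the difference ran from -0.61 to 0.32 and the median was -0.09. Hp was 1st, Itih3 3rd, Orm1 4th, Hpx 8th, Itih4 10th, Fga 14th, Fgg 33rd and Fgb 38th of the 151. Without mutant replicate 1 Hp was 1st, Itih3 7th, Orm1 8th, Hpx 26th and Itih4 38th, and Fga, Fgb and Fgg were 73rd, 88th and 120th.

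**Figure D3:**
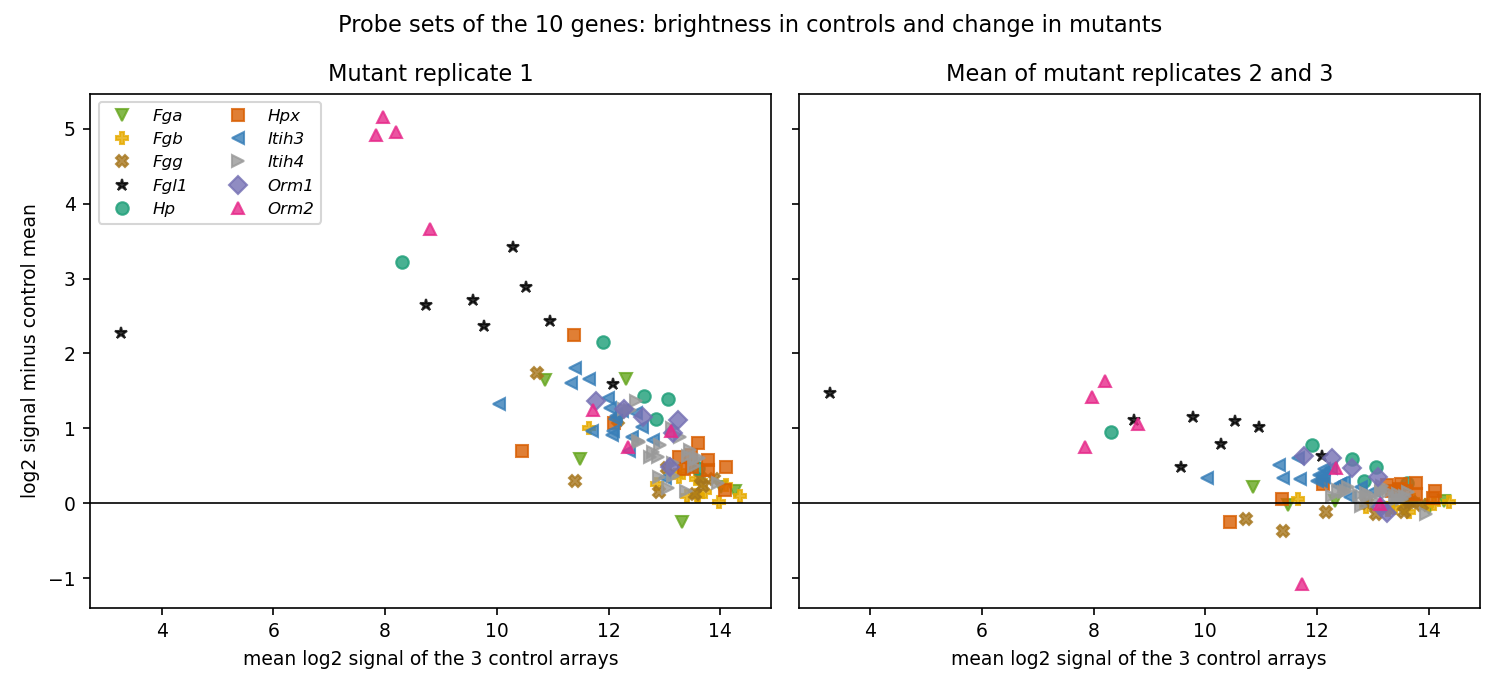
Each point is 1 of the 107 probe sets of the 10 genes, with its mean log2 signal on the 3 control arrays (x axis) and its log2 signal minus that control mean (y axis) in mutant replicate 1 (left) and as the mean of mutant replicates 2 and 3 (right). Deviations shrink towards the bright end in both panels, and 4 probe sets of Orm2 reach 3.66 to 5.16 in mutant replicate 1.

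Exon usage, which asks whether single probe sets depart from the change of their gene as a whole, was called in none of the 10 genes (adjusted p = 1 for each in the F-test of limma's diffSplice), beside 0.21% of 14310 genes called. The smallest unadjusted p was that of Orm2 (0.137), whose probe sets fall into the sets described above, and none of the 10 was under 0.05, beside 4% of all genes. Single probe sets gave 0 calls after adjustment over 191663 (0% of all), with 19 of the 107 higher at an unadjusted p under 0.05, beside 1.9% of all probe sets. Of the 107, 100 had a higher mutant mean (46.8% of all) and 99 had mutant replicate 1 as the highest array.

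Other acute phase genes were likewise highest in mutant replicate 1, in 17 of 19, beside 20.6% of all genes. Of 19 measured genes known to be raised in the response, 17 had a higher mutant mean and none passed, with a median difference of 0.62, which was 0.04 without mutant replicate 1, with 11 of the 19 higher. As a mean over this list, signals exceeded the control mean by 2.10, 0.26 and 0.35 in the mutants, with controls between -0.31 and 0.28. The same mean over Hp and the other 9 genes was 1.24, 0.33 and 0.26 in the mutants, with controls between -0.05 and 0.02. The 4 of smallest p were Lcn2, Saa3, Lrg1 and Apcs. Lrg1, a leucine-rich glycoprotein of plasma, read 12.38, 10.43 and 10.89 in mutants, against 9.57, 9.87 and 10.11 in controls (difference 1.38, SE 0.45; adjusted p = 0.943 in limma; 0.81 without mutant replicate 1). Lcn2 differed by 4.32 (SE 0.76; adjusted p = 0.547 in limma), Saa3 by 3.29 (SE 0.97; adjusted p = 0.943) and Apcs by 2.28 (SE 0.75; adjusted p = 0.943). These differences were 3.35, 2.08 and 1.57 without mutant replicate 1. A2m was picked out after its values were seen. A2m, the alpha-2-macroglobulin gene, read 7.77 in mutant replicate 1, against 5.02 and 5.02 in the other mutants and 4.88 to 5.13 in the controls.

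Genes that fall in the acute phase response differed little. Of 13 measured, among them albumin and transthyretin, 4 had a higher and 9 a lower mutant mean, the median difference was -0.06, and none passed; without mutant replicate 1, 6 had a higher mean. Mutant replicate 1 was the lowest array in 6 of the 13, beside 4936 of all 15045 genes. Of the 4 of smallest p, Apoa1, the main protein of high-density lipoprotein, differed by 0.19 (SE 0.16), the corticosteroid carrier Serpina6 by -0.23 (SE 0.19), transferrin (Trf) by 0.13 (SE 0.14) and Fetub by 0.13 (SE 0.15). Albumin read 13.64, 14.05 and 14.01 in mutants, against 14.02, 14.01 and 13.95 in controls, and was thus lowest in the array where the 10 genes were highest.

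Of 18 measured genes of the IL-6, IL-1 and STAT3 route, 10 had a higher and 8 a lower mutant mean (median 0.06), and none passed. Without mutant replicate 1 only 5 of the 18 had a higher mean and the median was -0.09. The transcription factor Cebpa had the smallest p and was lower in every mutant, at 9.54, 9.61 and 9.80, against 10.37, 9.999 and 10.30 in controls (difference -0.57, SE 0.16; adjusted p = 0.943 in limma; -0.52 without mutant replicate 1). Pias3, an inhibitor of STAT3, differed by -0.44 (SE 0.23), the kinase Jak2 by -0.35 (SE 0.22) and the glucocorticoid receptor Nr3c1 by -0.37 (SE 0.24). The last 3 were -0.23, -0.12 and -0.09 without mutant replicate 1. Socs3, a feedback inhibitor induced by STAT3, read 6.51, 5.86 and 5.74 in mutants, against 6.75, 5.72 and 5.57 in controls. The IL-1 receptor Il1r1 read 11.52, 8.98 and 9.50 in mutants, against 8.63, 9.86 and 9.98 in controls, and Stat3 read 10.58, 9.61 and 9.91, against 9.56, 9.87 and 10.03, so both were highest in mutant replicate 1 with the other mutants in the control range. Socs3, Il1r1 and Stat3 were named after their values were seen.

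Genes whose products clear or join the 10 proteins gave 8 of 14 higher in mutants, with a median of 0.05 and none past the threshold (7 of 14 and 0.01 without mutant replicate 1). F13a1, the fibrin-linking factor XIII subunit made by macrophages and platelets, had the smallest p, at 5.84, 4.79 and 4.84 in mutants, against 4.65, 4.34 and 4.31 in controls (difference 0.72, SE 0.28; adjusted p = 0.943 in limma; 0.38 without mutant replicate 1). The fibrinogen-binding integrin chain Itgam differed by 0.33 (SE 0.19), C1rl by -0.25 (SE 0.26) and F13b, the hepatocyte subunit of factor XIII, by -0.31 (SE 0.33). Itgam differed by 0.17, C1rl by -0.20 and F13b by 0.11 when mutant replicate 1 was left out.

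Markers of 3 other cell types were on average highest in mutant replicate 1. Over 9 measured neutrophil markers the mutants lay 0.82, 0.15 and -0.04 from the control mean, against -0.13 to 0.11 in controls, with 7 of the 9 highest in that array. Their signals were dim, with control means of 3.97 to 5.94, and Elane, Ly6g and Retnlg were not measured. Over 10 Kupffer cell and macrophage markers the mutants lay 0.62, -0.28 and -0.23 from the control mean, against -0.27 to 0.15 in controls, with 7 of the 10 highest in mutant replicate 1. The 6 hepatocyte markers lay at -0.09, -0.07 and 0.13 in mutants, against -0.08 to 0.04 in controls. The part of these cells in the values of the 10 genes was not tested. Lymphocyte, endothelial and platelet markers did not have mutant replicate 1 outside the other 5 arrays. As a mean, stellate markers had mutant replicate 1 lowest (-0.56), mostly through Reln (-1.89) and Lrat (-1.61). Of the 6 stellate markers, 2 were lowest in that array (beside 4936 of all 15045 genes) and 2 highest (beside 20.6%). Their median there was -0.16. Bile duct markers had mutant replicate 1 highest (0.66), mostly through Spp1, which read 10.09 there and 7.43 to 8.50 on the other arrays.

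**Figure D4:**
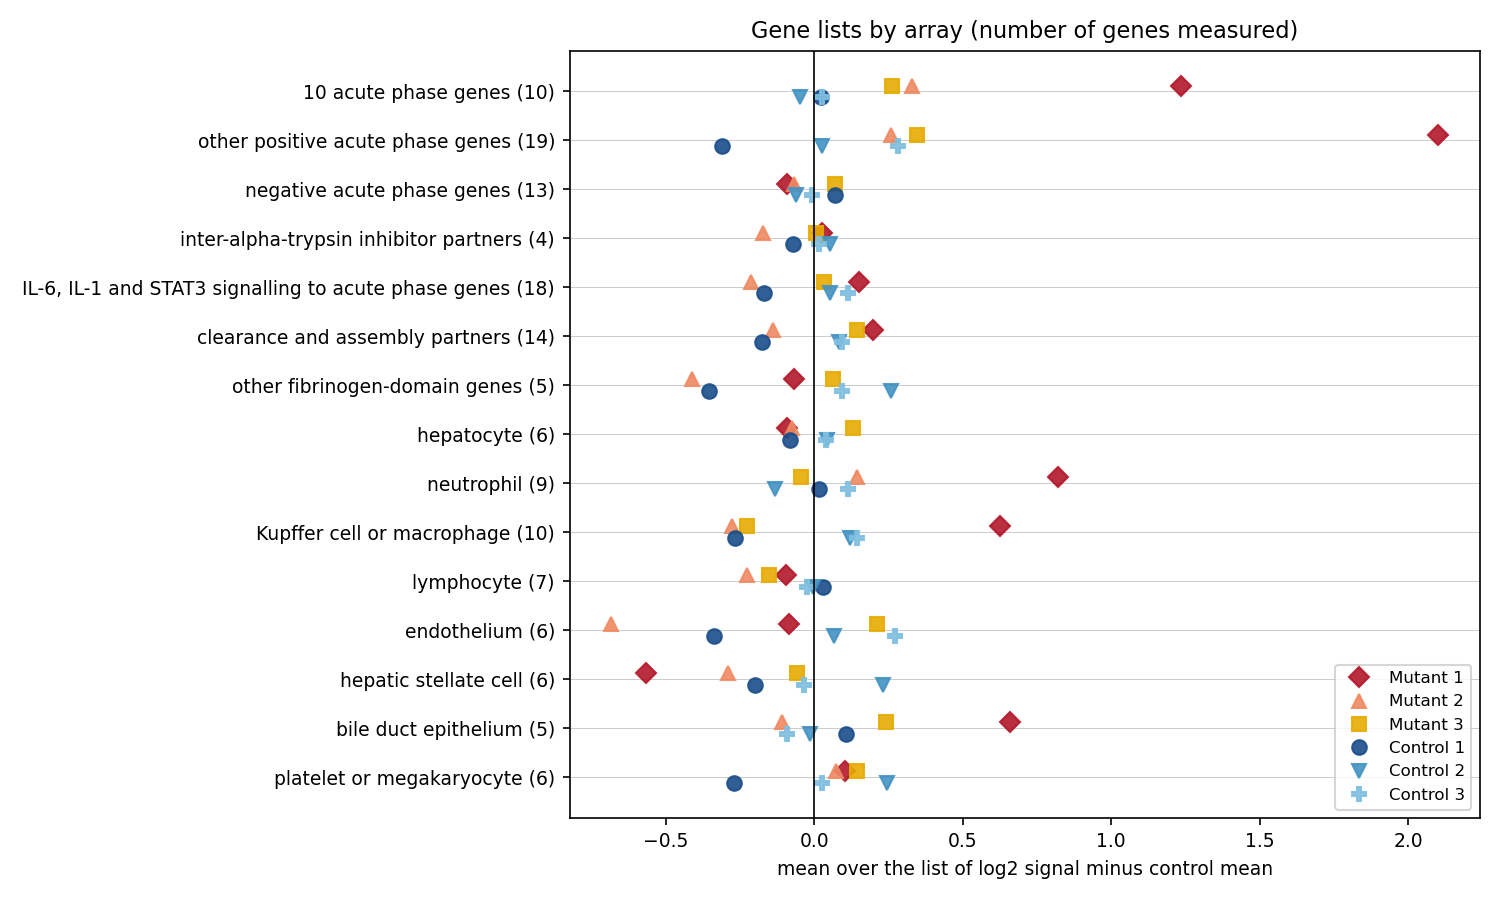
Mean over each gene list of log2 signal minus the control mean (x axis), 1 symbol per array, mutants drawn above controls in each row, with the number of measured genes in brackets. Mutant replicate 1 stands to the right in the 10 acute phase genes (1.24), the other genes raised in the response (2.10), and the neutrophil (0.82), macrophage (0.62) and bile duct (0.66) markers.

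The genes whose signal followed the mean profile of the 10 most closely over the 6 arrays, among 2686 others with a range of 1 log2 unit or more, were Usp17lb, Olfr1457, Lrrc59, Plscr1 and H2bc18, with Pearson correlations of 0.988 to 0.990. Without mutant replicate 1 these correlations were 0.944, 0.893, 0.884, 0.877 and 0.971 over 5 arrays. Plscr1, a phospholipid scramblase, read 9.61, 7.88 and 7.96 in mutants, against 7.62, 7.44 and 7.31 in controls. Lrrc59, a protein of the endoplasmic reticulum membrane, read 10.10, 9.31 and 9.32 in mutants, against 9.09, 9.17 and 9.18 in controls. Usp17lb and Olfr1457 were dim, with control means of 3.36 and 2.86. For Olfr1457 that is under the signal minimum of 3, against a mutant mean of 3.41. Not all of its probe sets met the minimum in controls, and those entered through the mutant group. Since 1 array stands far from the others in this profile, the correlations rest largely on it.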

How the data were processed

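Liver RNA of 3 Dhx32-/- and 3 control mice was measured on exon arrays. The deposited values are log2 signals for 204531 probe sets; per the submitters' processing notes, the tools were Affymetrix Expression Console 1.1, RMA and Partek 6.4 and the build mm9, with no role stated for any. RMA subtracts background, equalises arrays by quantiles and compresses the differences of dim probe sets; bright ones approach the top of the scale. Arrays have no read depth, so precision is limited by 3 per group. Nothing in the sources used here says more of how the mice were chosen. The limma p-values set each group difference against the spread within the groups of these samples, moderated over all genes. They do not cover a difference in litter or genetic background between the groups.

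Symbols came from the platform annotation, updated through RefSeq (13995 current, 2104 replaced, 40 unmatched). Probe sets with a group mean of 3 or more (191663) entered; a gene needed 2 of them, or 3 for exon usage. The lmFit, eBayes and diffSplice functions of limma 3.58.1 in R 4.3.3 were used, with Benjamini-Hochberg adjustment over all features and a threshold of 0.05; the smallest p of an exact two-sided permutation test here is 0.1. The steps were tested on simulated data. From each list up to 4 genes of smallest p were named, with the 5 genes most like the mean profile; others are marked in the text. The members and lists were chosen with earlier results of these data known. Alternatives were signal minimums, normalization, moderation, array weights, the median over probe sets, a replicate block and leaving out each array; the Orm2 split was added after seeing the data.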

Additional observations from a re-analysis of the deposited data

How the results depend on the processing

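None of the 10 genes passed under any setting run, with the Orm2 value from its 4 dimmer probe sets among them (151 values over 16 settings, 147 above 0, smallest adjusted p = 0.435 in limma). The sign turned for Fgb with array weights (-0.011) and with the median over probe sets (-0.0154). With 1 array left out, Fgb ran from -0.0205 to 0.15 and Fgg from -0.10 to 0.22, both lowest without mutant replicate 1, and the median over the 10 genes ran from 0.23 to 0.58. The median was 0.35 to 0.50 under the other settings. The count of genes past the threshold, 1 as reported with 633 at an unadjusted p under 0.05 in limma, was 0 with no signal minimum (617), 2 with quantile normalization, 2 with median centring, 2 with array weights and 0 with the replicate block (893), and 0 to 3 with 1 array left out. The count of probe sets was 0 as reported, 2 with a minimum of 5, 7 with a trend in eBayes and 3 with array weights, and 0 to 5 with 1 array left out. The count of genes with exon usage, 30 as reported, was 18 with the replicate block and 130 with the Simes test, and 12 to 54 with 1 array left out. The causes were not tested. The replicate numbers do not pair the mice by any label: deviations of same-numbered arrays correlated at 0.10, -0.11 and 0.18, and 2 of 6 arrays correlated best with their own number. The block left the median at 0.45 and changed no call among the 10 genes.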
